A study of Mus musculus with 4 samples.

Results

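Ion-transport spots were the 642 of 6411 Visium spots of mouse dorsal skin with the highest combined level of 6 genes for moving ions across an epithelium. Within each slice, every spot with at least 250 detected genes was scored by the mean of ln(1 + 10000 × UMIs / total UMIs) over *Atp12a*, *Car6*, *Fxyd4*, *Slc5a5*, *Trpv6* and *Atp6v1c2*, and the top 10% was taken. This gave 165 of 1649, 175 of 1751, 156 of 1555 and 146 of 1456 spots in slices 1 to 4. A UMI (unique molecular identifier) marks one captured RNA molecule, and levels below are in CPM, in which a gene's UMIs are divided by the total of the summed spots and scaled to 1000000.

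The 3 mice were of genotype *R26-tdTomato; Krox20-CreERT*. They received 4-hydroxytamoxifen at P2, and their dorsal skin was taken at P38. In this line *CreERT* follows *Krox20* at its own locus and leaves *Krox20* in place, and recombination turns on the tdTomato reporter. No uninduced or wild-type animals were among the samples, so every comparison here is between spots of the same sections. Each of the 4 slices held 1 section of each mouse, so the slices are technical replicates and their SDs and p-values measure the spread between slices, not between mice. A spot covers several cells, and fewer cells of a type and less RNA per cell cannot be told apart in its counts.

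The hair follicle (HF) opens at the skin surface through a funnel, the infundibulum, which continues downward as the isthmus, where the sebaceous gland joins. The upper HF carries its own keratinocyte populations, marked by genes such as *Krt79*, *Plet1* and *Lrig1*, and *Cst6* is a protease inhibitor of its lining. In transporting epithelia the Na,K-ATPase sets up ion gradients, and proton pumps, carbonic anhydrases, exchangers and channels use or shape them to set pH, calcium and water.

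The score genes chose the spots, so their levels are a description. *Car6*, a secreted carbonic anhydrase, averaged 4131 CPM ± 167 (SD, n = 4 slices) in ion-transport spots and 330 CPM in the other spots. *Atp12a*, the catalytic subunit of the non-gastric H,K-ATPase, averaged 1101 CPM ± 68.6, against 73.1 CPM ± 13.2. *Fxyd4*, a regulator of ATPase pumps, averaged 384 CPM ± 26.1. *Trpv6*, an epithelial calcium channel, and *Atp6v1c2*, a subunit of the V-type proton pump, stood at 249 CPM ± 21.8 and 237 CPM ± 12.6. The lowest was *Slc5a5*, the sodium/iodide symporter, at 135 CPM ± 19.2. Members held between 45% and 56.7% of each gene's UMIs in the series. UMIs of all 6 genes were present in 336 ion-transport spots (52.3%), of 5 genes in 256 and of 4 genes in 45. The score had no gap at the threshold: in slice 1 the last spot taken scored 1.414 and the first not taken 1.407, and in slice 3 these scores were 1.382 and 1.381. When each gene was left out of the score in turn, between 86.5% and 94.5% of the spots were chosen again, and the gene left out was between 6.9-fold and 13.1-fold higher in the spots chosen without it.

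Position was not used by the score. Distance was counted in steps on the array from the nearest IFE-score spot, these being the top 10% of each slice for *Krt1*, *Krt10*, *Lor*, *Flg2*, *Krtdap* and *Lce1a1*, genes of the suprabasal interfollicular epidermis (IFE). Ion-transport spots lay a median of 2, 2, 1 and 2 steps away in slices 1 to 4, and the other spots 4 steps away in each slice. The difference of the medians averaged -2.25 steps, with the same direction in 4 of 4 slices (exact two-sided sign-flip test, p = 0.125, the smallest that 4 slices allow). Of the ion-transport spots, 2.88% ± 2.92 (SD, n = 4) coincided with IFE-score spots, 43.0% ± 5.32 lay at step 1, 49.6% ± 7.25 at step 2 and 3.76% ± 1.73 at step 3. They made up 35.9% of all spots at step 1 and 40.9% at step 2, but 3.18% at step 3, and there were none from step 7 on. Between 91.0% and 97.7% of them per slice touched another ion-transport spot. The spots thus formed narrow bands along the epidermis, with breaks between them. A pair of sections on each slice lay with their epidermal sides against each other, so the nearest IFE-score spot could belong to the neighbouring section.

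**Figure D1:**
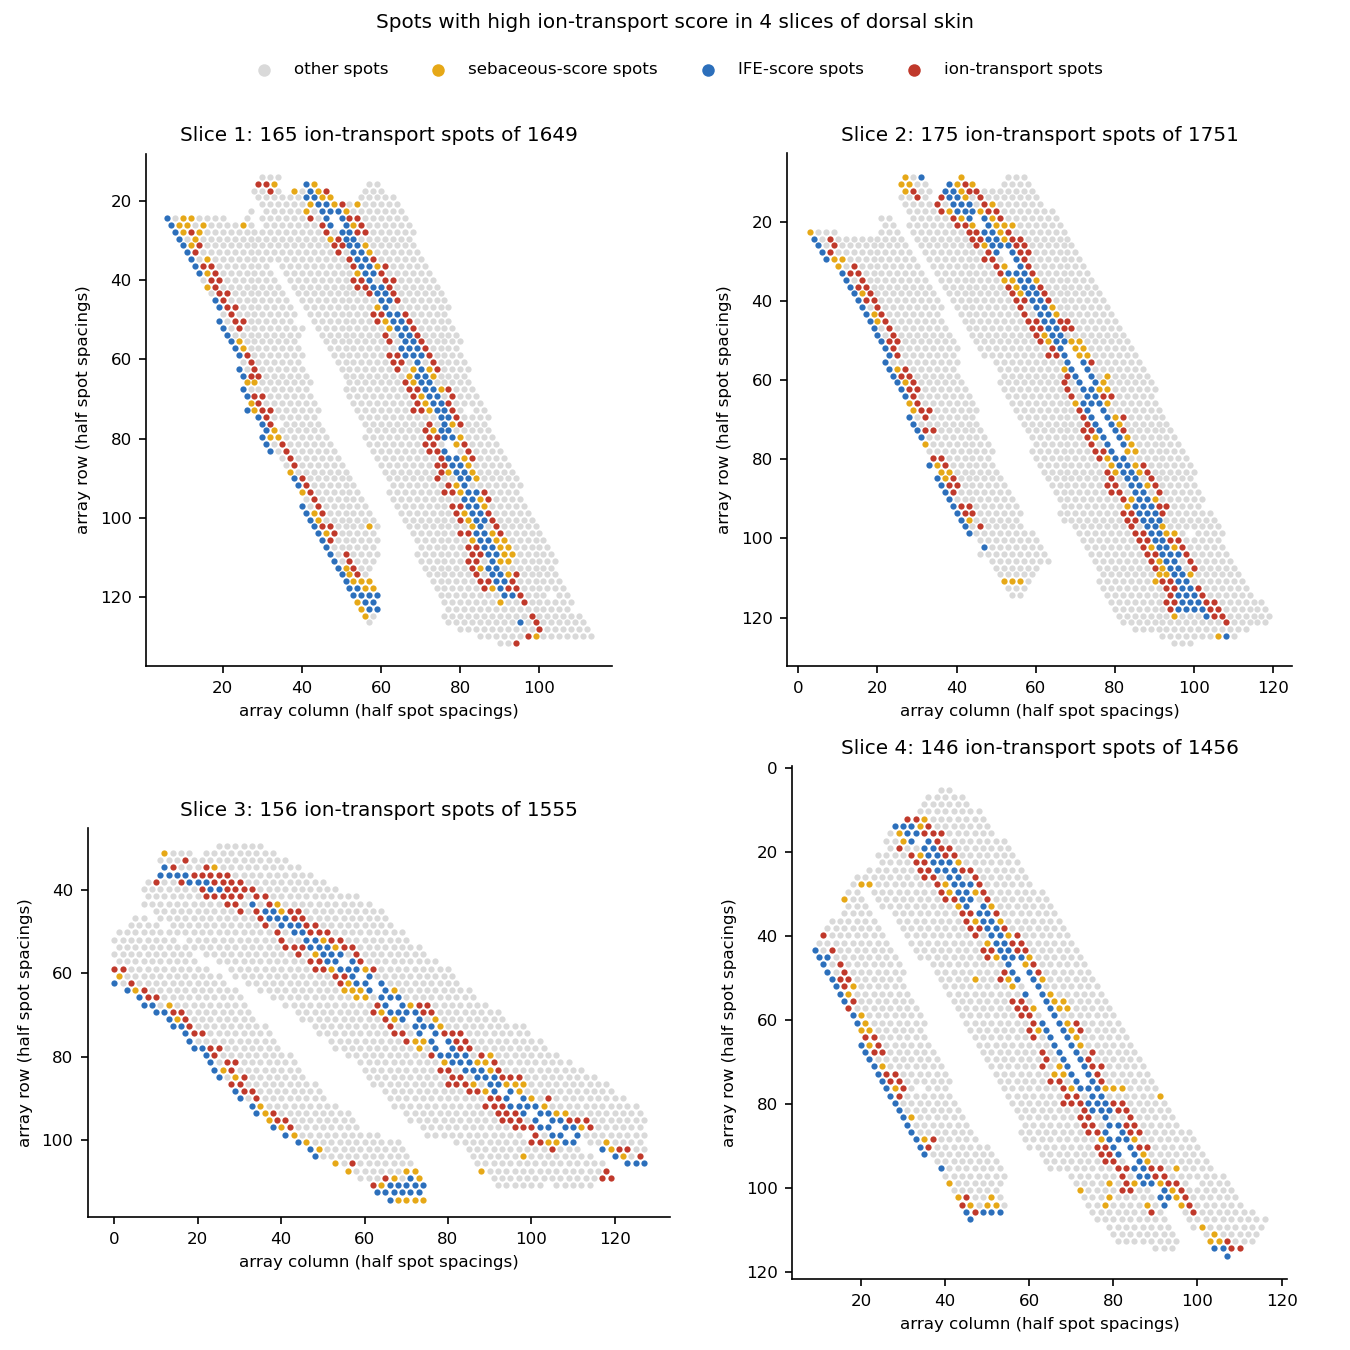
Map of the kept spots of the 4 slices on the array (columns and rows of the hexagonal grid), with ion-transport spots in red, IFE-score spots in blue, sebaceous-score spots in yellow and the others in grey. The 642 red spots lie beside the blue line, mostly 1 or 2 steps from it, and are drawn red where sets coincide.

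Sebaceous-score spots, the top 10% for *Scd3*, *Cidea*, *Mgst1*, *Awat1*, *Awat2* and *Dgat2l6*, shared the region: 40, 46, 46 and 35 ion-transport spots were also sebaceous-score spots, between 24.0% and 29.5% of each slice's members. Only 1, 2, 11 and 4 were also IFE-score spots. Ion-transport spots were shallower than the rest, with median UMIs of 12626, 10129, 8765 and 10752 in slices 1 to 4, against 14862, 12343, 12299 and 11912. The difference averaged -0.29 ± 0.14 on the log2 scale (SD, n = 4, lower in 4 of 4 slices; exact sign-flip p = 0.125).

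The name "upper follicle" was checked against 9 marker genes that the score did not use. In ion-transport spots the 9 genes together reached 26731, 25128, 27855 and 26318 CPM in slices 1 to 4, against 5212, 4793, 4821 and 5412 CPM in all other spots, with *Cst6* the most abundant. The ranges did not overlap. Counts were summed per slice and tested with edgeR's quasi-likelihood test with the slice as a block, and p-values are Benjamini-Hochberg adjusted over all genes tested. Of the 13713 genes tested, 22.7% were higher and 30.3% lower in ion-transport spots at adjusted p under 0.05, and the median log2 fold was -0.08. Of the 9 markers, 8 were higher, with a median log2 fold of 1.73; *Lgr6* had a log2 fold of -0.07. The spots were picked from these same counts, so the test says how steady a difference was between slices of spots chosen in this way. Against the IFE-score spots, where 17.5% of genes were higher and 16.1% lower, the list divided into 4 markers higher and 4 lower. It divided into 4 and 4 against the sebaceous-score spots too, where 11.8% of genes were higher and 10.9% lower. *Plet1*, *Cst6*, *Lrig1* and *Krt17* were the 4 that were higher in both comparisons, whereas *Krt79*, *Defb6*, *Lgr6* and *Alox12e* were lower in both.

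*Plet1*, a membrane protein that marks the upper HF, showed the widest difference of the 9. Its level in slices 1 to 4 was 987, 1012, 1023 and 1031 CPM in ion-transport spots, and 95, 89.8, 87.2 and 108 CPM in all other spots. The log2 fold was 3.37 ± 0.06 (SE, adjusted p = 2.5e-35). *Cst6*, cystatin E/M, stood at 20058, 17819, 19953 and 18940 CPM, against 2708, 2121, 2080 and 2562 CPM (log2 fold 2.98 ± 0.06, adjusted p = 5e-33). *Krt79*, a keratin of the infundibulum and the sebaceous duct, stood at 806, 806, 1073 and 915 CPM, against 229, 212, 207 and 247 CPM (log2 fold 1.95 ± 0.06, adjusted p = 3.8e-26). For these 3 genes the lowest ion-transport value was above the highest of the other spots. *Krt79* was nevertheless lower in ion-transport spots than in IFE-score spots (log2 fold -0.50) and than in sebaceous-score spots (-0.94), where its level reached between 1256 and 1726 CPM. The label therefore held for *Plet1*, *Cst6*, *Lrig1* and *Krt17* in each of these 3 comparisons. For *Krt79*, *Defb6*, *Gata6* and *Alox12e* it held in the first alone, and for *Lgr6* in none.

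*Plet1* lies on chromosome 9 (GRCm38, 50494525-50505482, plus strand) and *Atp1b1*, described below, on chromosome 1 (164437109-164458355, minus strand). The 250 bases upstream of each start, from RefSeq on GRCm38.p6, are shown because these genes were the leading membrane protein of the label and the leading pump subunit. Capitals mark TATAAA, searched on both strands.
Plet1, chr9:50494275-50494524, plus strand: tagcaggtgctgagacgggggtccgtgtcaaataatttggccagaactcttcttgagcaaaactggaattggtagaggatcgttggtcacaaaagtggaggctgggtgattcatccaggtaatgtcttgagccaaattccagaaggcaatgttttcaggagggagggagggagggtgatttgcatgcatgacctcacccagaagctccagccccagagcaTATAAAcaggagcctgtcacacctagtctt
Atp1b1, chr1:164458356-164458605, minus strand: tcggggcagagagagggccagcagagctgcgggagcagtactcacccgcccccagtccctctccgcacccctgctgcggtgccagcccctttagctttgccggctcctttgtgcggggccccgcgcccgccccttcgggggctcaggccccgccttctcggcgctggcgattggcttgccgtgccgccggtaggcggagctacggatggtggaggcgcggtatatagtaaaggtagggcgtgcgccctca
Of the 53 genes at least 2-fold higher than in other spots at the same distance, a comparison given below, 31 had such a window. TATAAA was in 3 of the 31 (9.68%; *Arhgap20os*, *Plet1* and *Sphk1*) and in 13% of 27025 windows of all genes. The letters of an EGR motif (GCGNGGGCG), the family of *Krox20*, were in 1 window (*Frmpd1*, 3.23%, against 4.63% of all windows). A GATA motif (AGATAA) and an ETS motif (CCGGAAG) were also in 1 window each, against 10.2% and 7.07% of all windows, and a GRHL motif (AACNGGTT) was in none, against 1.74%. None of these motifs was in the 5 windows of score genes. A match of letters is a description and not a binding site.

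Against all other spots, 829 genes (6.05%) were at least 2-fold higher and 1143 (8.34%) at least 2-fold lower at adjusted p under 0.05. For 764 of the 829 the slices of both sets did not overlap. Those genes were already chosen by their difference in the same fit, so this count only describes them. The share without overlap over all genes is not given here. The leading genes included the long noncoding RNA *1700019C18Rik* (log2 fold 3.97), *Cpsf4l* (3.63), *Plet1*, *Tmem171* (3.20), *Unc93a2* (3.16), *Klk6* (2.97) and *Cst6*. *Spink12*, of a family of serine protease inhibitors, had a log2 fold of 2.89, the secretoglobin *Scgb1a1* 2.84 and *Cstb*, an inhibitor of lysosomal proteases, 2.75. *Apoe*, a lipid carrier, reached 24907, 25682, 29600 and 30186 CPM in slices 1 to 4, against 3949, 3965, 3981 and 4884 CPM (log2 fold 2.67), the highest level of the genes named here. The immunoglobulin genes *Igkc* and *Igha* also passed the test, but *Igkc* stood at 38.1, 5.80, 12.0 and 58.1 CPM in ion-transport spots and 3.24, 3.01, 8.55 and 1.81 CPM in the others, so that the slices overlapped. The lowest genes were those of skeletal muscle, led by *Smpx* (-3.49), *Rpl3l* (-3.45), *Myom2* (-3.40) and *Tcap* (-3.28).

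The other spots take in muscle, dermis and the lower HF, and marker lists of these tissues moved with the comparison. Of all genes 22.7% were higher and 30.3% lower there. All 7 skeletal muscle markers were lower (median log2 fold -2.90), and their sum was 715, 822, 883 and 1269 CPM in slices 1 to 4, against 5242, 6948, 7067 and 6523 CPM, with *Acta1* the most abundant. The 8 markers of the inner root sheath and the 11 tested of the hair matrix and shaft were lower too (medians -1.26 and -1.07). So were 5 of 5 melanocyte markers (median -1.68) and 5 of 7 adipocyte markers (median -0.53). Of 10 suprabasal IFE markers 1 was higher and 8 were lower (median -0.76), although their sum averaged 3943 CPM against 2744 CPM. Basal keratinocyte markers were higher in 9 of 9 (median 1.08), led by *Krt14*, and their sum stood at 10564, 11616, 11734 and 11393 CPM, against 4235, 4235, 4373 and 4926 CPM. Sebaceous markers were higher in 7 of 9 tested (median 1.17; sums of 1003, 1135, 1233 and 974 CPM against 805, 753, 784 and 798 CPM, most abundant *Mgst1*). Fibroblast markers were higher in 5 of 6 (sums of 20124, 19706, 16301 and 14496 CPM against 8708, 6904, 6907 and 7882 CPM, most abundant *Col1a2*). The part of these other cells in the differences was not tested in this comparison, and the comparisons below with nearer spots give the same genes against a narrower background.

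The 595 ion-transport spots at steps 1 and 2 were next compared with the 954 other spots at the same steps. This comparison was added after the data had been seen. The 2 steps were pooled without weighting, so their mix was not matched. Of the ion-transport spots 43.0% lay at step 1 and 49.6% at step 2, against 8.53% and 8.05% of the other spots. Fits at step 1 alone and step 2 alone are given where they changed the call of a named gene. Of 10763 genes, 669 (6.22%) were higher and 522 (4.85%) lower, with a median log2 fold of -0.02. With library size alone in place of TMM, 548 were higher and 724 lower, so the balance of directions depended on the scaling. DESeq2, which differs in more than the scaling, gave 217 and 84, and TMM with no replicate block 386 and 158. The counts also moved with single slices, to 444 and 335 without slice 1, 481 and 299 without slice 2, and 416 and 228 without slice 4. At least 2-fold apart were 53 higher genes (0.492%) and 41 lower genes (0.381%). In 48 of the 53 the slices did not overlap, which again only describes genes already chosen by their difference. DESeq2 gave 30 and 14, and the lower genes numbered 27 without slice 4, 76 without slice 3 and 22 with no replicate block. *Plet1* stood at 1031, 1032, 1046 and 1056 CPM, against 395, 488, 355 and 399 CPM (log2 fold 1.40 ± 0.06, adjusted p = 6.8e-10). Besides *1700019C18Rik* (2.04) and *Cpsf4l* (1.62), the leading genes were *Aldh1b1*, a mitochondrial aldehyde dehydrogenase (1.68), *Scgb1a1* (1.49), *Hbegf*, a ligand of the EGF receptor (1.48), *Unc93a2* (1.40), the serine protease *Prss27* (1.35) and *Atp1b1* (1.30). Of the 9 upper HF markers, 4 were higher (*Plet1*, *Cst6*, *Lrig1*, *Krt17*) and *Defb6* was lower (-0.64), a call lost at step 2 alone (-0.05, adjusted p = 0.91). *Krt79* had a log2 fold of 0.09 (adjusted p = 0.62), and at step 2 alone it was higher, at 0.55 (adjusted p = 0.0022). The lowest genes were *Krtap20-2* (-1.74), a hair shaft gene, and *Myh2* (-1.39), a muscle myosin. The call of *Krtap20-2* was lost with DESeq2 (-1.57, adjusted p = 0.22) and at step 1 alone (-1.02, adjusted p = 0.056). That of *Myh2* was lost without slice 4 (-1.09, adjusted p = 0.10) and with no replicate block (-1.42, adjusted p = 0.10), and DESeq2 gave it no adjusted p. Among other cell types, sebaceous markers were lower in 9 of 9 (median -0.74), fibroblast markers in 4 of 6, skeletal muscle markers in 7 of 7, adipocyte markers in 5 of 7 (median -0.70) and melanocyte markers in 4 of 4 (median -0.43). Inner root sheath markers were lower in 6 of 8 (median -0.33) and those of the hair matrix and shaft in 6 of 11 (median -0.29), basal keratinocyte markers were higher in 4 of 9 and lower in 1, Schwann cell markers higher in 2 of 5 and smooth muscle markers lower in 2 of 5, and the part of these cells was not tested. Calls of *Igkc* and *Igha* were lost without slice 1, 2 or 4, with no replicate block and with DESeq2, and that of *Igha* with library size alone as well (adjusted p = 0.050), the widest loss among slices being without slice 4, with log2 folds of 0.77 and 0.49 (adjusted p = 0.25 and 0.45).

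**Figure D2:**
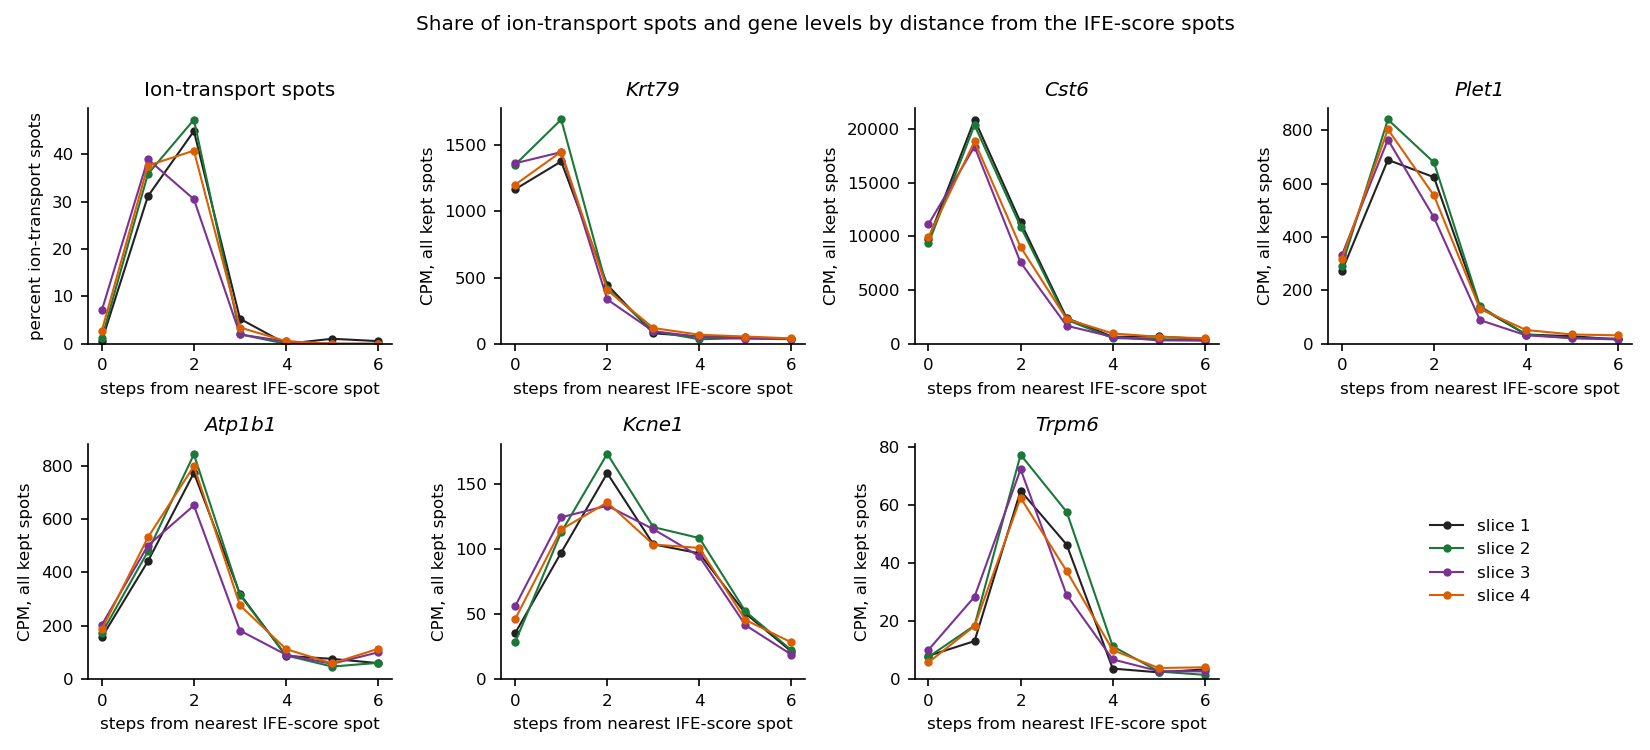
Share of spots that were ion-transport spots (percent) and CPM of 6 genes over all kept spots, by number of array steps from the nearest IFE-score spot, with 1 line per slice. The share peaks at step 2 in 3 slices and at step 1 in slice 3 (means of 40.9% and 35.9%); *Krt79* and *Cst6* peak at step 1, and *Atp1b1* and *Trpm6* at step 2.

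Over all kept spots, the genes did not share 1 depth in the skin. *Krt79* averaged 1271, 1492, 401 and 97.6 CPM at steps 0, 1, 2 and 3, and *Plet1* 303, 774, 583 and 124 CPM. *Atp1b1* averaged 180, 488, 766 and 273 CPM at the same steps, and *Trpm6* 7.88, 19.6, 69.3 and 42.6 CPM. The pump subunit and the magnesium channel thus had their highest means 1 step deeper than *Krt79* and *Plet1*.

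Ion-transport genes outside the score are given by role, beginning with the pumps. *Atp1b1*, the beta subunit of the Na,K-ATPase, stood at 1003, 977, 907 and 957 CPM in ion-transport spots, and 147, 148, 152 and 181 CPM in all other spots (log2 fold 2.57 ± 0.06, adjusted p = 4.2e-32). Every ion-transport value was above every other value. It was also among the 10 leading genes against IFE-score spots (2.52), sebaceous-score spots (1.80) and other spots at the same steps (1.30). *Fxyd3*, a regulator of this pump, had a log2 fold of 1.47 against all other spots and 0.48 at the same steps. Of the 10 tested genes for subunits and regulators of these pumps, 6 were higher and 3 lower against all other spots (median 0.51). Of all genes 22.7% were higher and 30.3% lower there, so the lower share was near that of all genes. At the same steps 3 were higher and 1 lower of 9, beside 6.22% and 4.85% of all genes. *Atp4b*, the beta subunit of the gastric pump, was at 0 UMIs in ion-transport spots, and *Atp4a* stood at 1.33 CPM.

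The V-type proton pump has a peripheral V1 part, which splits ATP, and a membrane V0 part, which passes protons. Of 12 V0 and accessory genes tested, 7 were higher and 1 lower against all other spots (median 0.46), beside 22.7% and 30.3% of all genes. At the same steps 6 of 11 were higher and none lower, beside 6.22% and 4.85% of all genes. *Atp6v0a4*, the V0 subunit known from acid-secreting cells, had a log2 fold of 1.99 against all other spots, and its call at the same steps (0.56) was lost without slice 2 (0.58, adjusted p = 0.063) or slice 4 (0.48, adjusted p = 0.14), with the 3 sections as units (0.48, adjusted p = 0.055), with no replicate block (adjusted p = 0.12), with DESeq2 (adjusted p = 0.33) and at step 1 alone (0.34, adjusted p = 0.35). Of 8 V1 genes, 3 were higher and 2 lower against all other spots (median -0.02), near the 22.7% and 30.3% of all genes, and 3 were higher at the same steps, led by *Atp6v1a* (0.94 and 0.56). *Atp6v1b1*, the V1 subunit of kidney and airway acid-secreting cells, stood at 0.39 CPM and was not tested.

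Of 10 potassium channel genes tested, 3 were higher and 1 was lower against all other spots (median 0.05), beside the 22.7% of all genes that were higher, and 2 of 6 were higher and 1 lower at the same steps. *Kcne1*, the small partner subunit of the potassium channel *Kcnq1*, stood at 200, 209, 193 and 179 CPM, against 47.6, 48.5, 52.3 and 53.1 CPM in all other spots (log2 fold 1.92 ± 0.06, adjusted p = 2.4e-26). *Kcnq1* itself was a rarer RNA, at 14.2, 20.6, 10.7 and 19.2 CPM, against 4.08, 4.95, 3.97 and 4.87 CPM (log2 fold 1.81 ± 0.18). The sets did not overlap for either gene. *Kcnj13* was the other higher gene (1.25) and *Kcnmb4* the lower one (-1.60), and *Kcnk5* was lower at the same steps (-0.86). At the same steps *Kcne1* kept a log2 fold of 1.21 (adjusted p = 2.1e-08), and *Kcnq1* 0.86, a call that was lost without slice 1, 2 or 4 (adjusted p = 0.055, 0.085 and 0.083) and at step 2 alone (0.76, adjusted p = 0.095), and DESeq2 gave it no adjusted p. *Slc4a11*, a transporter of the bicarbonate family, stood at 65.6, 52.7, 72.3 and 65.0 CPM, against 12.2, 11.2, 11.3 and 13 CPM (log2 fold 2.37 ± 0.10, adjusted p = 1.8e-22), and at 1.21 against spots at the same steps. It was the sole gene called of 16 chloride, bicarbonate and iodide genes tested at the same steps, close to the 6.22% of all genes that were higher there, where 12 of 24 had been higher and 2 lower against all other spots (median 0.54). *Slc26a9*, a chloride channel or exchanger, had a log2 fold of 2.58 against all other spots at a level of 11.4 CPM, and 0.70 at the same steps, which did not pass the test. *Cftr*, the chloride channel of airway and gland ionocytes, stood at 0.13 CPM.

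Of 13 genes for sodium channels, exchangers and their regulators, 7 were higher and 1 was lower against all other spots (median 0.44), beside 22.7% and 30.3% of all genes. *Scnn1a*, the alpha subunit of the epithelial sodium channel, had a log2 fold of 0.24 against all other spots and was not called. *Nedd4l*, a ubiquitin ligase that removes the channel (1.33), *Sgk1*, a kinase that restrains *Nedd4l* (1.28), *Slc9a3r1*, a scaffold for exchangers (1.16), and *Prss8*, a channel-activating protease (0.75), were higher. So were the exchangers *Slc9a9* (0.92) and *Slc9a2* (0.83) and the channel subunit *Scnn1b* (0.44), and the protease *St14* was lower (-0.31). The first 4 were also the 4 of 12 called at the same steps, at 0.73, 0.40, 0.49 and 0.53, where 6.22% of all genes were higher. Among carbonic anhydrases other than *Car6*, 2 of 9 were higher and 2 lower against all other spots, beside the 22.7% and 30.3% of all genes. *Car3*, also an adipocyte gene (-1.85), and *Car14* (-1.41) were the lower ones. Of 5 tested at the same steps, 1 was higher and 1 lower (*Car3*, -0.71). *Car12* was higher at 0.92, and its call at the same steps (0.29) was lost when any slice was left out (adjusted p between 0.064 and 0.19), at step 2 alone (0.10, adjusted p = 0.71), with no replicate block (adjusted p = 0.32), with DESeq2 (adjusted p = 0.54) and with library size alone (adjusted p = 0.074). *Car2* was higher at 0.43, a call lost without slice 2 (0.37, adjusted p = 0.059) or slice 3 (0.34, adjusted p = 0.076), with the top 5% of spots (0.24, adjusted p = 0.34) and with *Trpv6* left out of the score (0.27, adjusted p = 0.11).

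Among calcium and magnesium genes, 11 of 16 were higher and 3 lower against all other spots (median 0.62), beside 22.7% and 30.3% of all genes. In the fit over slices none of 14 was called at the same steps, near the 6.22% higher and 4.85% lower of all genes there. *Trpm6*, the epithelial magnesium channel, stood at 59.2, 59.6, 50.2 and 43.0 CPM, against 10.5, 13.1, 12.7 and 12.3 CPM (log2 fold 2.10 ± 0.11, adjusted p = 1.1e-19), with no overlap. At the same steps the other spots held 30.5, 48.3, 53.2 and 38.1 CPM, against 57.8, 59.4, 52.6 and 46.2 CPM in ion-transport spots (0.42, adjusted p = 0.055). The ion-transport value was higher in each slice except slice 3. In slice 3, 50.0% of ion-transport spots lay at step 1 and 39.7% at step 2, against 8.72% and 10.1% of the other spots. Over all kept spots of that slice *Trpm6* stood at 28.4 CPM at step 1 and 72.3 CPM at step 2. The part of this mix of steps in the *Trpm6* values was not tested. The difference was called without slice 3 (0.57, adjusted p = 0.010), with the 3 sections as units (0.45, adjusted p = 0.0079) and without the low-count filter (0.42, adjusted p = 0.039). The calcium buffers *S100g* and *Calb1*, partners of *Trpv6* in gut and kidney, were at 0 UMIs in ion-transport spots, and *Trpv5* stood at 0.17 CPM. Of 6 water channels, 1 was higher and 3 were lower against all other spots (median -0.73), beside 22.7% and 30.3% of all genes. *Aqp9* was the higher one (2.10), and *Aqp4* (-2.16), *Aqp7* (-1.45) and *Aqp11* (-1.29) were lower. At the same steps *Aqp9* was higher (0.77) and *Aqp1* lower (-0.37) of 3 tested, and *Aqp3* was not called in either comparison (0.11 and -0.04).

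**Figure D3:**
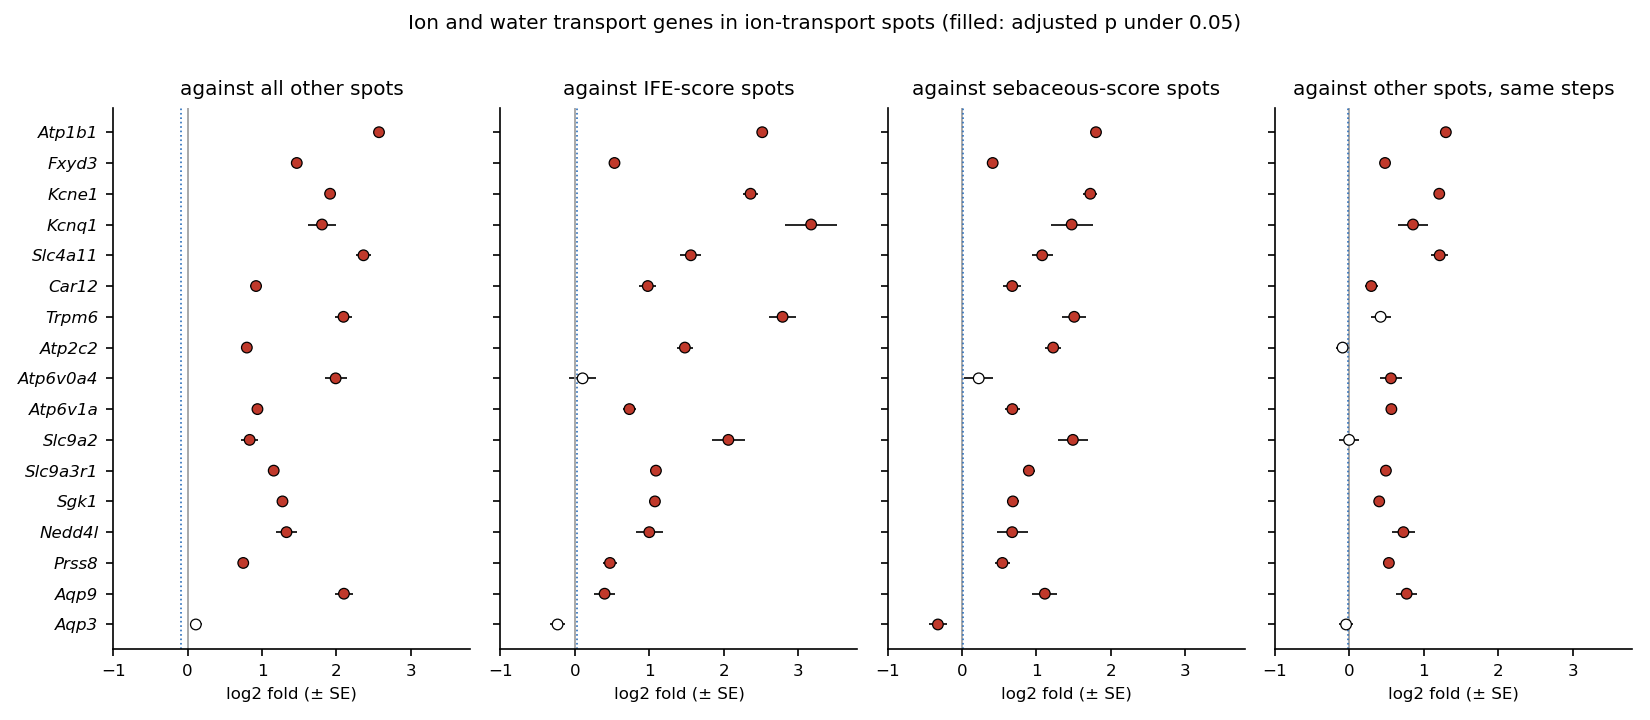
Log2 fold (± SE) of 17 ion-transport genes in ion-transport spots against all other spots, IFE-score spots, sebaceous-score spots and other spots at the same steps; filled points have an adjusted p under 0.05, and the dotted line is the median of all genes. *Atp1b1* and *Kcne1* lie right of the line in each panel, at 1.30 and 1.21 at the same steps, where *Trpm6* (0.42) is not filled.

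Several transcription factors of ionocytes, the ion-pumping cells of airway and kidney, were at or near 0. *Foxi1*, *Foxi2*, *Foxi3* and *Hmx2* had 0 of 7292756 UMIs in ion-transport spots, which allows up to 0.411 CPM (3 counts, counting error only), and *Ascl3* stood at 0.17 CPM. The list of simple and glandular epithelium divided, with 2 of 5 higher and 2 lower against all other spots, 3 of 3 higher against IFE-score spots and 1 of 3 higher at the same steps. Its sum was 582, 570, 606 and 669 CPM, against 213, 206, 212 and 237 CPM, most of it *Epcam*, an adhesion molecule that HF keratinocytes also express (log2 fold 1.68 against all other spots and 0.86 at the same steps). *Krt8* was higher too (0.55, at 10.4 CPM), and *Krt18* (-0.73) and *Krt19* (-0.83) were lower. *Krt7* stood at 3.26 CPM, *Aqp5*, a water channel of sweat and salivary glands, at 1.25 CPM, and the part of glandular cells in the results was not tested. Of the 17 ionocyte and epithelial factors tested, 10 were higher and 4 lower against all other spots (median 0.35), beside 22.7% and 30.3% of all genes. *Ehf*, of the ETS family, stood at 87.2, 91.2, 91.0 and 85.9 CPM, against 22.4, 19.6, 19.8 and 23.3 CPM in all other spots (log2 fold 2.01 ± 0.08, adjusted p = 9.3e-23). The homeobox gene *Barx2* (1.73), *Sox9* (1.42), a factor of HF stem cells, and *Elf5* (0.66) were higher as well. At the same steps 5 of 15 factors were higher and none lower, beside 6.22% and 4.85% of all genes. Among the higher were *Ehf* (0.80), *Elf5* (0.61), *Barx2* (0.56) and *Sox9* (0.45). Lower against all other spots were *Grhl3*, a factor of the cornifying epidermis (-1.03), *Gata3* (-0.59), *Ovol1* (-0.50) and *Grhl1* (-0.30).

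Proteases of the kallikrein family, which cut the contacts of shed corneocytes, and their inhibitors formed the other group. Of 14 tested, 9 were higher and 3 lower against all other spots (median 1.22), beside 22.7% and 30.3% of all genes. At the same steps 6 of 12 were higher and none lower (median 0.60), beside 6.22% and 4.85% of all genes. *Klk10* stood at 1368, 1007, 1292 and 1228 CPM, against 202, 137, 153 and 183 CPM (log2 fold 2.82 ± 0.06, adjusted p = 9.5e-33). *Cstb* stood at 1988, 1895, 1829 and 2155 CPM, against 301, 278, 251 and 301 CPM (2.75 ± 0.06). In neither gene did the sets overlap. The 6 higher at the same steps were *Cstb* (1.26), *Klk6* (1.17), *Spink5*, the inhibitor of these kallikreins (0.99), *Klk10* (0.96), *Klk5* (0.72) and *Klk7* (0.62). Other kallikreins ran the opposite way against IFE-score spots, *Klk8* at -3.13, *Klk9* at -3.68 and *Klk11* at -1.57, and 5 of the list were higher and 8 lower there.

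Most barrier genes of the cornified layer were lower in ion-transport spots than in all other spots, but their summed RNA was not. The envelope list summed to 6059, 4421, 4494 and 5050 CPM, against 4178, 3497, 3556 and 3973 CPM, with *Sprr1a* the most abundant. Of 18 cornified envelope genes tested, 2 were higher and 14 lower against all other spots (median -0.93), beside 22.7% and 30.3% of all genes. At the same steps 1 was higher and 7 were lower of 16, beside 6.22% and 4.85% of all genes. The one higher in both was *Sprr1a*, at 4289, 3046, 3048 and 3620 CPM against 1751, 1308, 1217 and 1483 CPM (log2 fold 1.24 ± 0.05), and 0.84 at the same steps. Of 15 enzymes that make barrier lipids, 3 were higher, near the 22.7% of all genes, and 11 lower against all other spots, beside 30.3%. Their summed level averaged 1060 CPM, against 939 CPM. At the same steps none was higher and 4 were lower of 13, beside 6.22% and 4.85% of all genes. Of the tight junction genes, 9 of 18 were higher and 5 lower against all other spots, the lower ones near the 30.3% of all genes (22.7% were higher). At the same steps 4 of 16 were higher and none lower, beside 6.22% and 4.85% of all genes. *Cldn1*, the claudin that seals the epidermis, stood at 262, 248, 250 and 327 CPM, against 163, 158, 172 and 194 CPM (0.61 ± 0.06), and *Cldn8*, a claudin of kidney and gut, at 21.1, 20.6, 22.8 and 22.1 CPM, against 11.9, 12.5, 13.4 and 13.3 CPM (0.72 ± 0.13). Both were also higher at the same steps, at 0.45 and 0.60, and the sets did not overlap in the first comparison.

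Immune genes changed sides with the spots compared. Of all genes 22.7% were higher and 30.3% lower against all other spots, and 17.5% and 16.1% against IFE-score spots. The shares were 11.8% and 10.9% against sebaceous-score spots, and 6.22% and 4.85% at the same steps. Of 7 genes of antigen-presenting cells, 5 were higher against all other spots (median 0.77), but 7 of 7 were lower against IFE-score spots (median -1.59) and 4 of 6 at the same steps (median -0.69). *H2-Ab1*, a class II antigen-presenting molecule, stood at 170, 198, 161 and 168 CPM, against 118, 92.8, 78.4 and 107 CPM in all other spots, and reached between 504 and 576 CPM in IFE-score spots. Of 7 genes of the bulge and outer root sheath, the lower HF compartments of stem cells and their sheath, 5 were higher and none lower against all other spots (median 1.05), 4 were higher and 1 lower against IFE-score spots (median 1.19), and 3 were higher and 1 lower against sebaceous-score spots. At the same steps *Sox9* and *Lhx2* (0.60) were higher and the other 5 were not called.

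**Figure D4:**
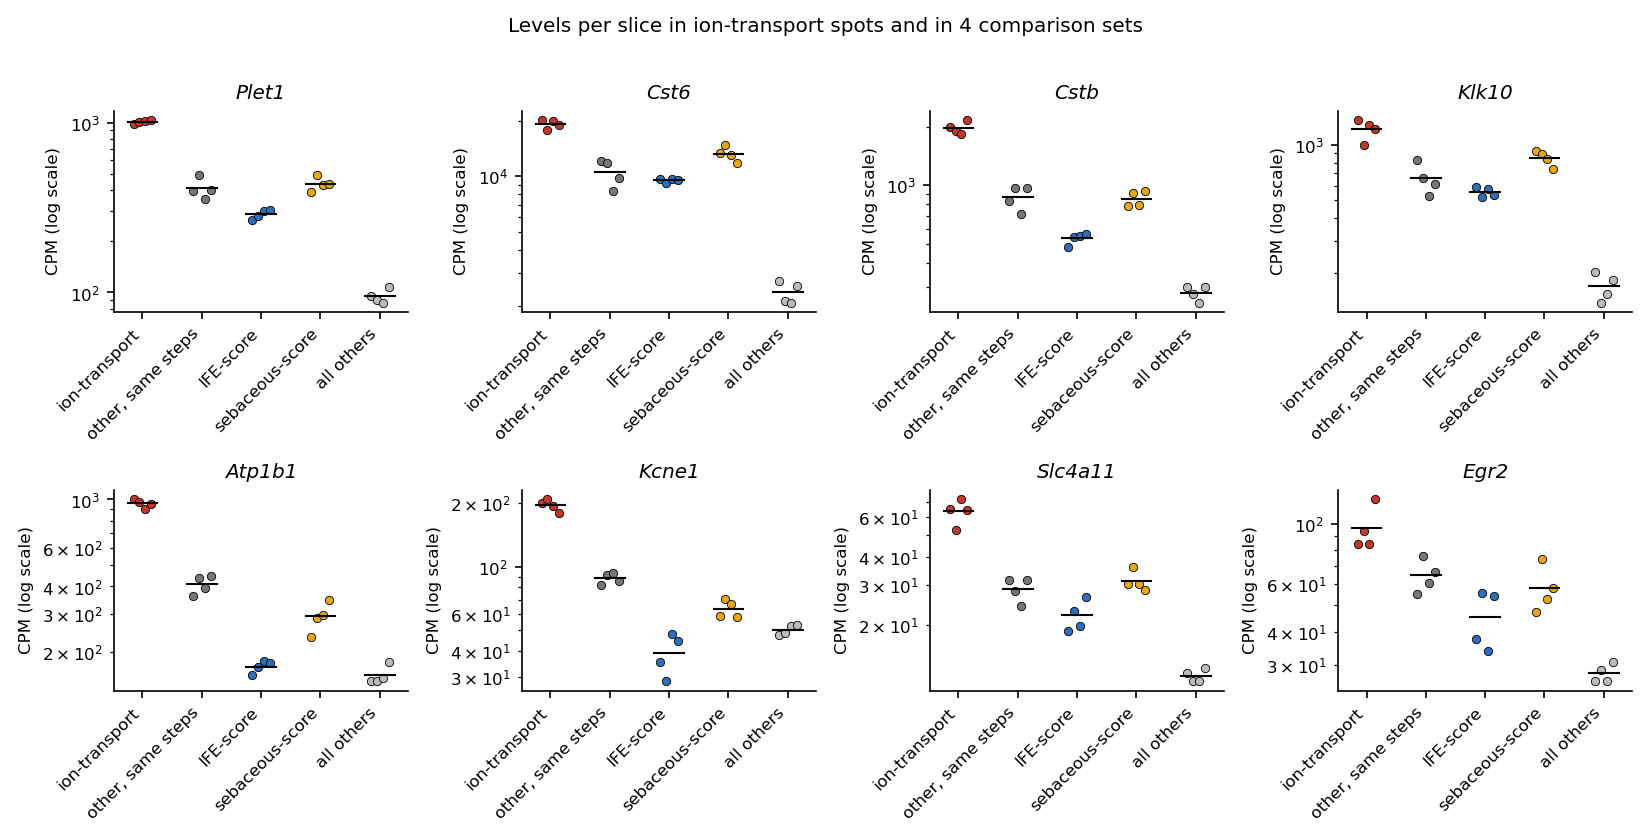
CPM per slice (points, log axis) and mean (line) of *Plet1*, *Cst6*, *Cstb*, *Klk10*, *Atp1b1*, *Kcne1*, *Slc4a11* and *Egr2* in ion-transport spots, other spots at the same steps, IFE-score spots, sebaceous-score spots and all other spots. Ion-transport spots have the highest mean in each panel, with *Plet1* at 987 to 1031 CPM against 87.2 to 108 CPM in all other spots.

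Against IFE-score spots, 375 of 10174 genes (3.69%) were at least 2-fold higher and 480 (4.72%) lower. *Tmem171* led, at 43.8, 60.1, 48.6 and 60.0 CPM against 5.37, 6.96, 3.30 and 12.6 CPM (log2 fold 2.91), followed by *Spink12* (2.84), *Trpm6* (2.79), *Cpsf4l* (2.78), *Rnase12* (2.76), *Wfdc18* (2.53) and *Atp1b1*. The lowest were *Ifitm6* (-4.87) and genes of the cornified envelope and its lipids, *Lce1e* (-4.82), *Lce1m* (-4.77), *Alox12b* (-4.76) and *Hrnr* (-4.75). *Sprr1a*, also an envelope gene, was higher (1.18). Basal keratins differed less, with *Krt14* at 1.07 and *Krt5* at 0.82. *Krt6a*, a keratin of the companion layer and upper HF, stood at 1382, 1409, 1477 and 1570 CPM, against 276, 274, 364 and 309 CPM (2.28 ± 0.06, adjusted p = 3.6e-28), without overlap. Without the 2-fold limit, 17.5% of all genes were higher and 16.1% lower. Among other cell types, adipocyte markers were higher in 6 of 6 (median 1.28) and Schwann cell markers in 3 of 4. Skeletal muscle markers were lower in 7 of 7 (median -0.62), fibroblast markers in 5 of 6, smooth muscle markers in 3 of 5 and T cell markers in 3 of 3, and the part of these cells was not tested.

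Against sebaceous-score spots, 140 of 9586 genes (1.46%) were at least 2-fold higher and 335 (3.49%) lower, after spots in both sets were left out. The leading genes were *Spink12* (2.01), *Fam83d* (2.00), *Hbegf* (1.95), *1700019C18Rik* (1.88), *Tmem171* (1.88), *Rnase12* (1.82) and *Cpsf4l* (1.81), with *Atp1b1* and *Kcne1* (1.72). The lowest were *Serpinb6e* (-3.99), *Cyp1a1* (-3.66), *Pnpla5* (-3.65) and *Hamp2* (-3.65). *Far2* (-2.84) and *Soat1* (-2.58), lipid enzymes of the gland that the sebaceous score did not use, were lower as well. Without the spots of both kinds, *Plet1* (1.22), *Klk6* (1.19) and *Slc4a11* (1.08) were higher. Without the 2-fold limit, 11.8% of all genes were higher and 10.9% lower. Smooth muscle markers were lower in 5 of 5 (median -1.21), skeletal muscle markers in 7 of 7 (median -0.82), fibroblast markers in 5 of 6, antigen-presenting markers in 6 of 6 and T cell markers in 3 of 3, and Schwann cell markers were higher in 2 of 4. The part of these cells was not tested here either.

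The ion-transport spots were not uniform. The 320 at step 2 were compared with the 275 at step 1, which was also added after the data had been seen. Of 7688 genes, 499 (6.49%) were higher at step 2 and 430 (5.59%) lower, with a median log2 fold of 0.03. With no replicate block these counts were 198 and 241, so that the balance turned, and with DESeq2 174 and 172. In the blocked fit, 35 (0.455%) were at least 2-fold higher at step 2 and 88 (1.14%) at least 2-fold lower. *Slc9a2*, a sodium/proton exchanger, stood at 41.0, 46.1, 43.4 and 49.7 CPM at step 2, against 6.16, 11.2, 15.9 and 11.2 CPM at step 1 (log2 fold 2.01 ± 0.25, adjusted p = 1.1e-13). *Trpm6* stood at 74.6, 77.9, 81.4 and 65.9 CPM, against 23.1, 24.0, 19.0 and 22.4 CPM (1.73 ± 0.19, adjusted p = 6.3e-18). *Krt79* ran the other way, at 483, 443, 559 and 468 CPM, against 1592, 1520, 1604 and 1469 CPM (-1.69 ± 0.05). In all 3 genes the slices of the steps did not overlap.

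Other genes higher at step 2 were the anion exchanger *Slc4a1* (1.69), the glutamate transporter *Slc1a1* (1.53), *Car2* (1.33), the calcium pump *Atp2c2* (1.11), *Aqp9* (0.85), *Krt14* (0.67) and *Atp1b1* (0.37). DESeq2 gave *Car2* no adjusted p (1.35). *Slc4a1* and *Car2* are also red cell genes, and the globin gene *Hbb-bs* was higher by 1.01; its part in these values was not tested. *Cst6* (-1.0), *Klk10* (-1.09), *Slc4a11* (-0.85), *Apoe* (-0.80), *Plet1* (-0.49) and *Prss8* (-0.59) were lower at step 2. *Kcne1* had a log2 fold of 0.11 and *Lrig1* 0.08, and neither was called. Of the 7 upper HF markers tested, none was higher at step 2 and 6 were lower. Sebaceous markers were lower in 7 of 8 tested, and smooth muscle markers in 4 of 5, with *Myh11* at 14.2, 24.3, 9.49 and 15 CPM at step 2, against 61.6, 71.9, 47.6 and 49 CPM at step 1 (-1.86). Hair shaft markers were higher in 9 of 10, inner root sheath markers in 7 of 8, adipocyte markers in 4 of 5 (median 0.85), skeletal muscle markers in 4 of 7 and melanocyte and Schwann cell markers in 2 of 4 each. Fibroblast markers were lower in 4 of 6, those of antigen-presenting cells in 4 of 5 and of the suprabasal IFE in 3 of 3. The part of these cells in the differences between steps was not tested.

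**Figure D5:**
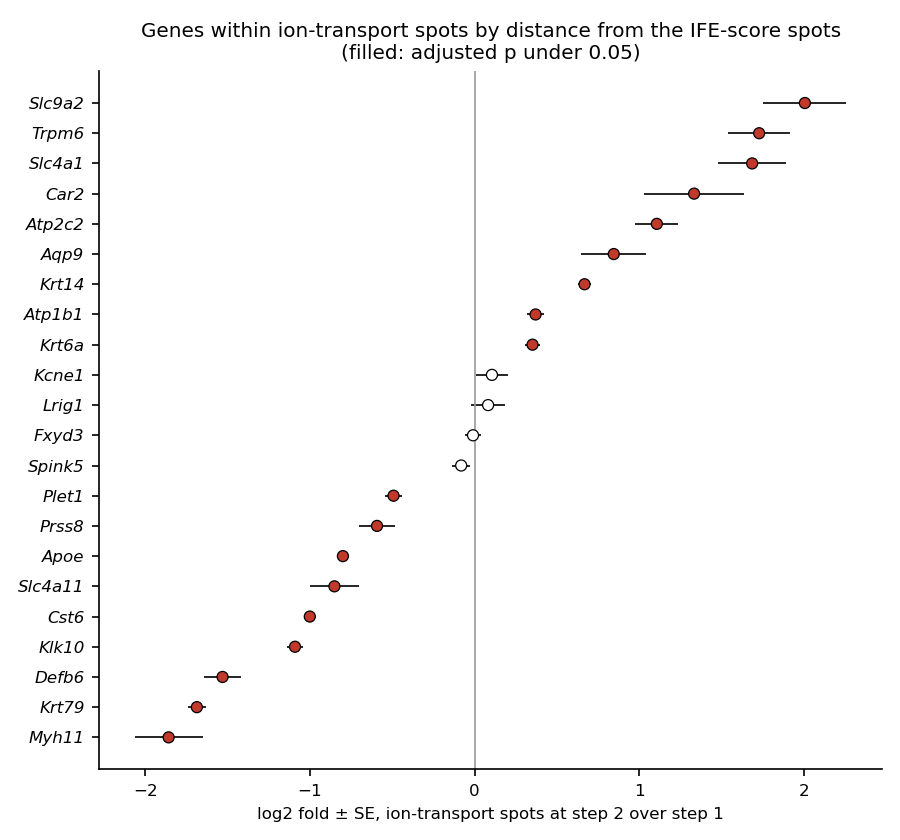
Log2 fold (± SE) of 22 genes in the 320 ion-transport spots at step 2 against the 275 at step 1; filled points have an adjusted p under 0.05. *Slc9a2* (2.01) and *Trpm6* (1.73) are highest, and *Krt79* (-1.69) and *Myh11* (-1.86) lie at the other end.

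*Krox20* (*Egr2*), whose locus carries *CreERT* in these mice, stood at 84.4, 94.4, 84.3 and 124 CPM in ion-transport spots, and 26.2, 28.9, 26.2 and 30.8 CPM in all other spots (log2 fold 1.73 ± 0.08, adjusted p = 3.9e-21). The sets did not overlap. It was also higher than in IFE-score spots (1.12), sebaceous-score spots (0.86) and other spots at the same steps (0.65 ± 0.10, adjusted p = 0.00043), and its log2 fold between steps 2 and 1 was 0.15, which was not called. *Lrig1*, a marker of upper HF stem cells, stood at 157, 160, 154 and 183 CPM, against 43.3, 43.6, 46.1 and 59.8 CPM (1.73 ± 0.06), and at 0.76 at the same steps. *Krox20* is also a gene of Schwann cells. Of 5 Schwann cell markers tested 4 were higher against all other spots, with sums of 286, 300, 324 and 359 CPM, against 139, 144, 180 and 178 CPM, most abundant *Pmp22*; *Sox10* had a log2 fold of 0.50 and was not called. The part of Schwann cells in the *Krox20* value was not tested. *Nes* had a log2 fold of -0.12 against all other spots, and it was not called in any of the 5 comparisons.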

How the data were processed

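The authors deposited UMI counts per gene and spot over tissue, made with Space Ranger 2.0.1 on mm10, without normalization. Slices held 26910422, 24128004, 21384253 and 19393026 UMIs. Spots with fewer than 250 genes were left out (9 of 6420). The legend of the study's spatial figure leaves out a distorted section that could not be matched to spots, so no spot was dropped for it. Of 2485 barcodes, 1842 occurred in several slices, since barcodes stand for array positions. *CreERT* was not analysed here. The members and gene lists were chosen with earlier results of these data known.

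Counts were summed per slice and spot set and fitted by the quasi-likelihood method of edgeR 4.0.16 under R 4.3.3, with TMM scaling, filterByExpr and the slice as a block; the score genes of either set stayed out of the tests. Named genes were the 20 highest and 10 lowest against all other spots, the 10 highest and 5 lowest against IFE-score and sebaceous-score spots (adjusted p under 0.05, the same direction in 4 of 4 slices, at least 20 CPM in the higher set), and the genes of the lists. The same rule gave genes of the added comparisons; *Hbb-bs* and other single genes were taken after their values were seen. Sums of a slice share sections, and their deviations from the set means correlated at 0.26, 0.16, 0.08 and 0.13 over 13651 genes, so the slice was kept as block. Alternatives were no block, DESeq2 1.42.0, library size alone, no low-count filter, each slice left out, other score settings and, added later, 3 sections as units. Sections were numbered by position, and which mouse each came from is not given in the sources used here. The boundary between sections 1 and 2 was the emptiest band of spots. That between sections 2 and 3 was the line that best parted *Xist* from Y-linked UMIs. Of these UMIs *Xist* made up 7.67% to 14.1% in sections 1 and 2 and 83.0% to 91.3% in section 3. Some genes are not reported here. Positions are from GENCODE M21, and the fits were checked on simulated counts.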

Additional observations from a re-analysis of the deposited data

Results flagged for a closer look

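Of 145 sets of 4 slice values, 13 (8.97%) held a slice far from the other 3, where chance gives about 1 in 20. In ion-transport spots these were *Klk7* at 1410 CPM, *Prss22* at 99.3 CPM and *Zbtb7c* at 28.1 CPM. In all other spots they were *Apoe* at 4884 CPM, *Cpsf4l* at 11.3 CPM, *Atp1b1* at 181 CPM, *Slc26a9* at 2.43 CPM, *Sgk1* at 145 CPM, *Nedd4l* at 9.85 CPM, *Elf5* at 37.5 CPM, *Lrig1* at 59.8 CPM and *Myom2* at 21.3 CPM. The median UMIs of all other spots, 14862 in slice 1, were the last. None of these genes changed direction or lost its call against all other spots when any 1 slice was left out.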

How the results depend on the processing

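Over the 188 pairs of a named gene and a comparison, 2765 of 2819 values under an alternative kept direction and side of the threshold, 49 lost the call, 4 gained it and 1 reversed (*Pnpla5* at the same steps, 0.11 at step 2 alone against -1.23); the causes were not tested.

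Counts of genes at least 2-fold apart moved as follows. Against all other spots, higher genes numbered 510 with 3 strips per slice as units (829 in the report). With the top 10% taken within 10 classes of depth, 573 genes were higher (829) and 721 lower (1143) against all other spots. DESeq2 gave 944 higher and 904 lower there, so the balance of directions turned. Without the low-count filter, which tests more genes, lower genes numbered 504 against sebaceous-score spots (335) and 74 at the same steps (41), and at step 2 against step 1 there were 64 higher and 141 lower (35 and 88). DESeq2 gave 30 higher and 14 lower genes at the same steps (53 and 41), and 18 and 49 between the steps. At the same steps, step 2 alone gave 35 and 25 and step 1 alone 63 lower genes.

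With no replicate block, genes at least 2-fold lower at the same steps numbered 22 and those at least 2-fold higher 51. Without the 2-fold limit, the counts there were 386 higher and 158 lower (669 and 522), and at step 2 against step 1 they were 198 and 241 (499 and 430). The block moved no other count of genes by over 1.5 times.

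Without the 2-fold limit, DESeq2 called 801 higher and 899 lower against IFE-score spots (1777 and 1636), 380 and 432 against sebaceous-score spots (1129 and 1044), 217 and 84 at the same steps, and 174 and 172 between the steps. Step 2 alone gave 415 and 316 at the same steps, and leaving out slice 4 gave 416 and 228. With library size alone, 952 were higher and 1212 lower against sebaceous-score spots, and 1669 and 1707 against IFE-score spots. Both balances of directions turned with that scaling and with DESeq2. The balance against IFE-score spots also turned without slice 2 (1387 and 1434) and without slice 4 (1365 and 1425). It turned too with the top 5% of spots in both sets (1322 and 1402). Against sebaceous-score spots the balance also turned without the low-count filter (1138 and 1186).

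With each slice left out, counts of genes at least 2-fold apart ranged from 766 to 915 higher and 1070 to 1192 lower against all other spots, 375 to 427 and 489 to 566 against IFE-score spots, 142 to 172 and 314 to 378 against sebaceous-score spots, 49 to 63 and 27 to 76 at the same steps, and 39 to 52 and 84 to 105 between the steps. The 27 lower genes were found without slice 4 and the 76 without slice 3. With the top 20% of spots, the difference in position was -3 steps (-2.25). Genes of a few UMIs per slice, such as *Slc26a4* (2.77 CPM against 0.313 CPM), are the least secure. With the 3 sections as units, 805 of the 829 and 1113 of the 1143 genes were called again against all other spots, and 52 of the 53 and 30 of the 41 at the same steps.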

Other observations

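The tdTomato transcript, which marks recombined cells and their descendants in these mice, was rare in the counts. Ion-transport spots held 0, 7, 2 and 4 of its UMIs in slices 1 to 4, together 13 of 7292756 UMIs, or 1.78 CPM (exact 95% Poisson interval 0.949 to 3.05, counting error only). The other spots held 21, 24, 21 and 24, together 90 of 84521213, or 1.06 CPM (0.856 to 1.31). The intervals overlapped, which is not a test of the difference, and none was run. Slice 2 held 7 of the 13 UMIs in ion-transport spots, so their value rests largely on 1 slice.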
